A study of Mus musculus with 2 samples.

Results

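CTCF peaks at CpG-poor coding promoters are the binding sites of the zinc finger protein CTCF that lay within 1 kb of the start of a protein-coding transcript and in DNA with few CpG dinucleotides. They were taken from the optimal set of the authors, the peaks kept after ranking their repeatability between lists (irreproducible discovery rate, IDR). A peak belonged when its summit, on chromosomes 1 to 19, had coding starts of one strand only within 1 kb (GENCODE vM21) and a CpG observed/expected ratio of at most 0.6 in the window of mm10 that reaches 500 bp to each side of it. The rule selected 3796 of the 61263 optimal peaks on chromosomes 1 to 19, and the set holds a further 1423 peaks on other chromosomes. It used position and base composition and no measured signal. The nearest coding starts of these peaks belonged to 3247 genes, of which 2785 had 1 peak, 391 had 2 and the remaining ones had 3 to 7.

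The tissue was hindbrain of newborn mice, taken at postnatal day 0 from the strain B6NCrl with no allele or treatment named in the labels. Hindbrains of several dissections were pooled and ground to powder, so the lists average over all cell types of the hindbrain and over animals whose sex was not recorded. The study has 1 group of 2 chromatin immunoprecipitation libraries (ChIP-seq), numbered as biological replicates. Both were made from one pooled tissue source according to the labels, which means that differences between them can be technical. Read counts are not in the files and the depth is unknown here. The signal of a peak is the deposited score of the peak caller. Its unit is unknown, and it served to rank and describe peaks.

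CTCF binds a long DNA motif through its zinc fingers, and it holds cohesin at the motif so that chromatin loops end there, most often between motifs that point towards each other. Methylation of a CpG inside the motif can weaken binding. Mammalian promoters fall into a class with CpG islands, typical of broadly expressed and developmental genes, and a class with few CpGs, typical of genes used in one or a few tissues. Their DNA is often methylated in tissues where the gene is silent.

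The CpG-poor promoter peaks were compared with 2 other classes of the optimal set. The first was 4586 coding promoter peaks chosen in the same way but with a ratio above 0.6, here called CpG-rich promoter peaks. The second was 47664 peaks with a ratio of at most 0.6 whose summit lay over 1 kb from any annotated start, here called CpG-poor distal peaks. A CTCF core match is an occurrence of the 14-bp CTCF core consensus within 50 bp of the summit, on either strand, with at most 2 mismatches. Shares were compared by Fisher's exact test, two-sided, over peaks, or by an exact binomial test against 50%. The main p-values are adjusted by Benjamini-Hochberg over 25 such tests with a threshold of 0.05. Those of each alternative processing are adjusted over its own tests, which were fewer with 1 library left out or with the conservative set. All p-values treat peaks as independent, and p-values and 95% intervals cover counting error only.

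The core matches of the strongest CpG-poor promoter peaks and of 4 peaks named from the gene lists are shown because they are the DNA that the results on motifs turn on. Each line gives 30 bases of mm10 on the strand of the match, 5′ to 3′, with the 14 bases of the match in capitals.
Comtd1, chr14:21849039-21849068, plus strand: acatctcgCCACCCGGTGGCTGcatgcgga
Twf2, chr9:106212121-106212150, minus strand: cactgcgcCCAGTAGGGGGCGCagcgaagc
Ccdc110, chr8:45934941-45934970, minus strand: ctctgtggCCACCAGAGGGCGCgctatgat
Top1mt, chr15:75679451-75679480, minus strand: ggccgtgtCCAGCAGGGGGCCCactagcct
Mtnr1a, chr8:45068913-45068942, plus strand: gagtctcgCCACACGGGGGCGCaacgtgca
Cirbp, chr10:80165230-80165259, minus strand: cgataaggACAGGAGAGGGCGCtacagcct
H2-DMa, chr17:34135411-34135440, plus strand: ccgaccttCCACCAGGGGGCGGaggtctcc
Slc36a1, chr11:55204245-55204274, plus strand: gctgacggCCGCCAGGTGGCGCtgcagaac
Rbfox3, chr11:118508065-118508094, plus strand: acttctgaCCAGCAGAGGGAACcaatgagc
Cyp2w1, chr5:139355408-139355437, minus strand: gcccctggCCACAAGAGGGCACcaggccag
The matches of Twf2, Ccdc110 and H2-DMa fit the consensus without a mismatch, while those of Comtd1, Mtnr1a and Cirbp have 2. The matches of Top1mt, Rbfox3 and Cyp2w1 hold no CpG, and each of the other 7 holds at least 1.

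Windows of 200 bases around 3 summits that lie outside every annotated exon show the setting of such matches upstream of a start. They are printed on the strand of the gene, with the match in capitals, so that a match on the opposite strand appears as its reverse complement.
Top1mt, chr15:75679349-75679548, minus strand: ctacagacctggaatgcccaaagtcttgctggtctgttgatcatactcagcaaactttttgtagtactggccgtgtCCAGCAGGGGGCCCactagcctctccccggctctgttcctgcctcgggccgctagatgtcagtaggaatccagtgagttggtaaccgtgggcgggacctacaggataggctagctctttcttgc
Mtnr1a, chr8:45068858-45069057, plus strand: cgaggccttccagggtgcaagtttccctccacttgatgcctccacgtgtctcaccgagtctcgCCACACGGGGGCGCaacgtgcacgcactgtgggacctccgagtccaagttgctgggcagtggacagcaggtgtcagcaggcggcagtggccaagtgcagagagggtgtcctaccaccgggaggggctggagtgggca
Cirbp, chr10:80165111-80165310, plus strand: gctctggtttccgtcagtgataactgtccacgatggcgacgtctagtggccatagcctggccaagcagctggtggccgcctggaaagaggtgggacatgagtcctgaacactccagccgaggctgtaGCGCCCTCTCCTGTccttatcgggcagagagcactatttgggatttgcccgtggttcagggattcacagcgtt
The window of Top1mt holds 6 CpGs and is 55.5% C and G. That of Mtnr1a holds 11 CpGs, and that of Cirbp 10. The matches of Top1mt and Mtnr1a point along the gene, and that of Cirbp points against it.

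The CpG ratio of the peaks had a median of 0.407 and an interquartile range of 0.272 to 0.516. Because the rule measures CpGs around the summit, the label was checked at the start site itself. The nearest coding start was CpG-poor by the same limit for 2670 peaks (70.3%) and CpG-rich for 1126 (29.7%). Summits of the second kind lay farther out, at a median of 652.5 bp from the start against 252.5 bp, so that for these peaks "CpG-poor" describes the flank of a CpG-rich promoter. Core matches were found at 51.1% (49.2 to 53.0) of the first kind and at 42.9% (40.03 to 45.8) of the second. The peaks nearest to the limit were those of Rhoc, which encodes a small GTPase, with a ratio of 0.5999, and of Mecom, a transcription factor gene, with 0.5998. Just above it were the peaks of Mapkapk3, a kinase gene, with 0.60001, and of Ednrb, an endothelin receptor gene, with 0.60003. Their signals were 212 for Rhoc, 50.5 for Mecom, 47.8 for Mapkapk3 and 56.3 for Ednrb.

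Both libraries listed nearly all of the CpG-poor promoter peaks, which was equally so for the classes they were compared with. A peak of replicate 1 was missing for 3 and a peak of replicate 2 for 24, and 3769 had both. The share with both was 99.29%, against 99.04% of the CpG-rich promoter peaks and 99.56% of the CpG-poor distal peaks. It therefore does not set the CpG-poor promoter peaks apart. Signal had a median of 39.0 in replicate 1 and 25.9 in replicate 2, and it was lower in replicate 2 for 3409 peaks and higher for 360. The median ratio of replicate 2 to replicate 1 was 0.696, with quartiles of 0.555 and 0.813. Each library's scale is its own, so no difference between the libraries can be read from this ratio. The ranks of the peaks in the 2 lists had a Spearman correlation of 0.912 over the 3769 peaks, given as a description, since the authors selected the set for ranks that repeat. A single-library peak that overlaps 2 optimal peaks lends its value to both, which touched 148 peaks (3.90%). Replicate 2 exceeded replicate 1 by over 2 times at 33 peaks, and 10 of those shared their library peak with a neighbour.

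**Figure D1:**
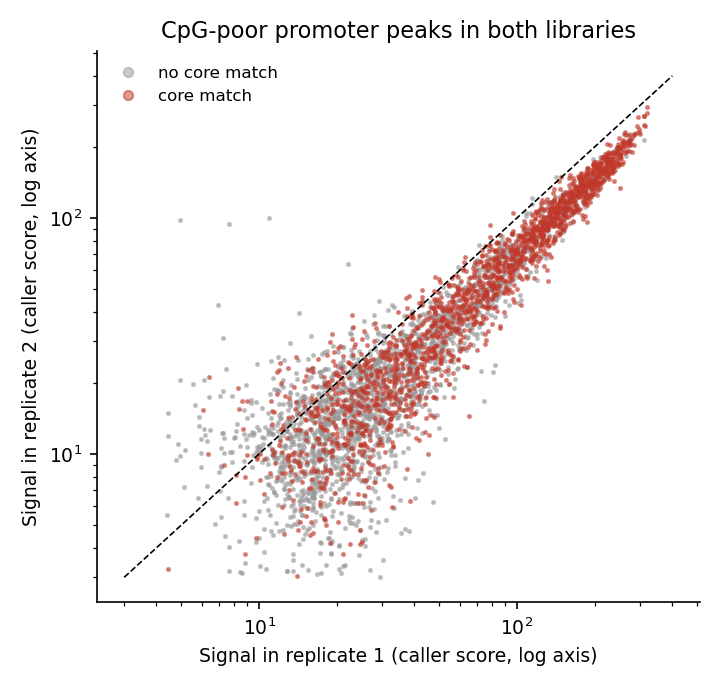
Signal of each CpG-poor promoter peak in replicate 1 (horizontal) and replicate 2 (vertical), both as caller score on log axes, with peaks that have a CTCF core match in red and the others in grey; the dashed line marks equal values. The strongest peaks lie in a narrow band just below the line, most of them with a match, and the spread widens towards weak peaks, of which a few stand far above the line.

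Among the 15 strongest CpG-poor promoter peaks, 14 had a core match, 7 of them without a mismatch. The signals of these 15 ran from 283 to 319 in replicate 1 and from 214 to 294 in replicate 2. Of the 15, 12 lay upstream of the start, where 56.9% of all CpG-poor promoter peaks lay. The strongest was at Comtd1, which encodes a protein with a catechol methyltransferase domain. Its peak, at chr14:21848842-21849209, had a signal of 612 in the optimal set, 319 in replicate 1 and 294 in replicate 2, and its summit lay 57 bp upstream of the start in an exon of a noncoding transcript. The peak ranked 20 among all optimal peaks, 43 in replicate 1 and 6 in replicate 2. The peak of Twf2, the gene of the actin-binding protein twinfilin-2, reached 599, with 319 in replicate 1 and 280 in replicate 2, in an intron 410 bp downstream of the start. The peak of Ccdc110, a coiled-coil protein gene, reached 582, with 312 and 270 in replicates 1 and 2, also in an intron.

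The next 5 peaks lay upstream of their starts. Top1mt, which encodes the DNA topoisomerase of mitochondria, had 573 (311 in replicate 1 and 269 in replicate 2) at 649 bp upstream of the start. Mtnr1a, a melatonin receptor gene, had 560.0 (293 and 268) at 179 bp upstream. Cirbp, which encodes a cold-inducible RNA-binding protein, had 556 (312 and 244) at 774 bp upstream. All 3 lay outside genes, and the 3 windows printed above are theirs. Pcdh1, a cell adhesion gene, had 555 (309 and 247), and Lingo1, a partner of the Nogo receptor that restrains axon growth and myelination, had 540 (292 and 246). The summits of both were about equally far upstream, at 841 and 843 bp, and the starts of both were CpG-rich, with ratios of 0.730 and 0.806.

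In the rest of the group the summits lay at most 231 bp from the start. Srrm3, which encodes a splicing factor for neuronal microexons, had 529 (296 and 230) at 96 bp upstream. Rint1, a gene of vesicle tethering, had 525 (299 and 227) at 76 bp upstream, and Arhgap22, a GTPase-activating protein gene, had 516 (289 and 229) at 67 bp upstream. These 3 matches had no mismatch. Ddx47, an RNA helicase gene, had 507 (283 and 226) at 78 bp upstream, and Ankrd39, a gene of an ankyrin repeat protein, had 534 (297 and 237) in an untranslated exon 48 bp downstream. H2-DMa, which encodes a chain of the chaperone that loads peptides on MHC class II, had 509 (284 and 224) at 231 bp upstream. Vps18, a gene of the endosomal tethering complexes, was the exception without a match: its best site had 3 mismatches although its signal was 526 (309 and 214).

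CTCF core matches were more frequent at CpG-poor than at CpG-rich promoter peaks and less frequent than at CpG-poor distal peaks. A match was found at 1848 of 3796 CpG-poor promoter peaks (48.7%, 47.1 to 50.3), where 65.3% of all autosomal optimal peaks had one. The share was 31.7% (30.3 to 33.0) at CpG-rich promoter peaks, a difference of 17.0 percentage points (14.9 to 19.1; Fisher's exact test, adjusted p = 4.45e-56). It was 70.7% (70.2 to 71.1) at CpG-poor distal peaks, a difference of -22.0 points (-23.6 to -20.3; exact test, adjusted p = 9.51e-161). With at most 3 mismatches the 2 differences were 10.1 and -12.7 points, and with at most 1 the first was 11.1 points. Windows of the same size 1 kb to the left and right of the CpG-poor promoter summits held a match in 3.58% and 4.14%. Within the CpG-poor promoter peaks, the median signal was 117 where a match was found and 44.1 where none was.

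The order of the 3 classes was the same at like signal. In the weakest quartile of the autosomal optimal peaks, 24.4% of the CpG-poor promoter peaks had a match, against 13.3% of the CpG-rich promoter peaks (Fisher's exact test, adjusted p = 4.21e-12) and 49.7% of the CpG-poor distal peaks (2.06e-56). In the second quartile the shares were 40.1%, 26.7% and 64.2%, and in the third 57.9%, 39.0% and 77.2%. In the strongest quartile the shares were 81.3%, 68.5% (exact test, adjusted p = 3.19e-08) and 89.6% (3.09e-11). All 8 differences passed the threshold, and with at most 3 mismatches those in the strongest quartile were 3.91 and -2.02 points.

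**Figure D2:**
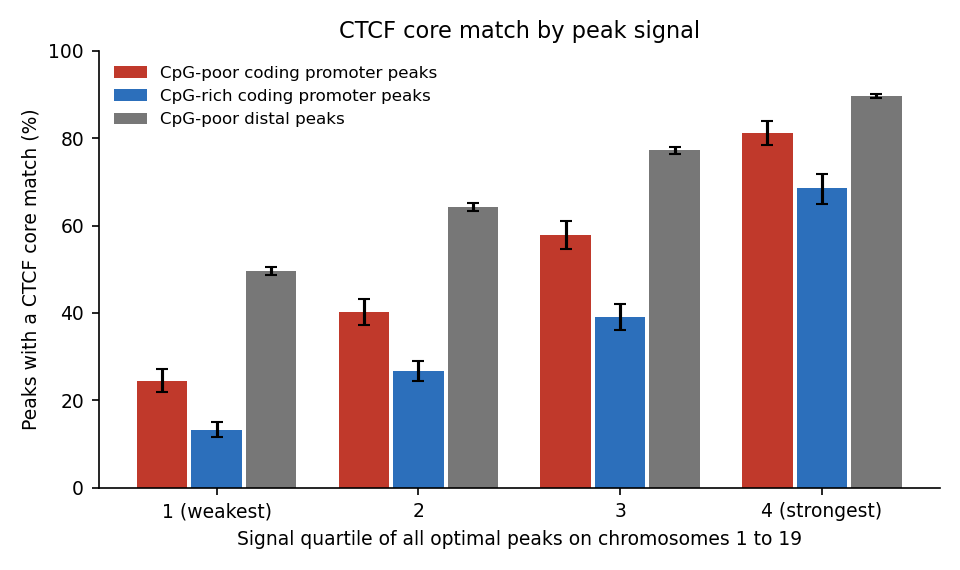
Share of peaks with a CTCF core match (percent, bars, with 95% Wilson intervals) in each quartile of the signal of all autosomal optimal peaks, for CpG-poor promoter peaks (red), CpG-rich promoter peaks (blue) and CpG-poor distal peaks (grey). In every quartile the CpG-poor promoter peaks stand between the other two, from 24.4% in the weakest to 81.3% in the strongest.

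The match share followed the CpG ratio at promoters over the whole range. It was 71.2% (58.6 to 81.2) of 59 promoter peaks with a ratio of up to 0.1, 57.6% at 0.2 to 0.3, and 39.1% (36.2 to 42.0) of 1098 at 0.5 to 0.6. Above the limit of the rule it went on to 35.3% at 0.6 to 0.7 and 28.9% at 0.9 to 1. Distal peaks kept a share of 68.8% to 71.5% in every bin up to 0.5 and had 60.1% at 0.5 to 0.6. The shares of promoter and distal peaks were within each other's intervals up to a ratio of 0.1 and apart in every bin from there to 0.9. Distance from the start moved with the ratio: the median was 585 bp in the lowest bin and 240 bp at 0.5 to 0.6, and its part in the trend was not tested. These bins were drawn with the values known and carry no test.

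**Figure D3:**
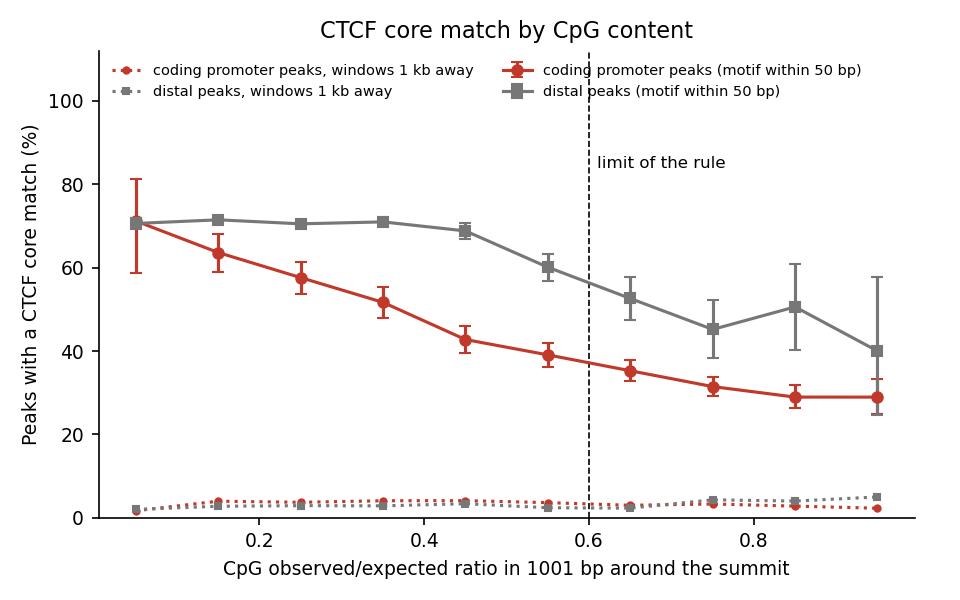
Share of peaks with a CTCF core match (percent, points with 95% Wilson intervals) against the CpG observed/expected ratio, for coding promoter peaks (red circles) and distal peaks (grey squares); dotted lines give the same share in windows 1 kb away, and bins of under 20 peaks or above a ratio of 1 are left out. At promoters the share runs from 71.2% to 28.9%, at distal peaks it is flat up to 0.5, and the limit of 0.6 falls on a gradual slope with no step.

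The matches themselves also differed in CpG content and quality, given here as descriptions. Of the 1848 matches at CpG-poor promoter peaks, 854 (46.2%, 43.9 to 48.5) held a CpG, against 77.0% at CpG-rich promoter peaks and 29.1% at CpG-poor distal peaks. Each match lies inside the window whose CpG ratio defined the classes, so this share is not independent of the rule. Distal peaks with a ratio above 0.6 had 76.6%. Matches without a mismatch made up 172 of the 1848 (9.31%), against 4.96% and 13.9% in the 2 other classes. The centre of the match lay at a median of 7.5 bp from the summit.

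Taken over each whole class, binding signal at CpG-poor promoters was higher than at CpG-rich promoters and lower than at CpG-poor distal sites. The median signal was 63.4 (interquartile range 35.0 to 160.2, from 7.24 to 612), against 54.1 at CpG-rich promoter peaks and 78.0 at CpG-poor distal peaks. The 2 CpG-poor classes differed in CpG ratio, with medians of 0.407 and 0.208. Up to a ratio of 0.1 the median signal was 83.3 at 59 promoter peaks and 56.3 at distal peaks. At 0.1 to 0.2 it was 66.3 and 67.5. From 0.2 to 0.6 it was lower at promoters in every bin, with 63.5 against 163.5 at 0.5 to 0.6. Signal at like ratio was not tested. The autosomal median of 73.8 was exceeded by 45.3% of the CpG-poor promoter peaks, where the background is 50% by construction. The share was 38.4% at CpG-rich promoter peaks (difference 6.89 points, 4.77 to 9.01; exact test, adjusted p = 3.40e-10) and 51.5% at CpG-poor distal peaks (difference -6.12 points, -7.76 to -4.47; adjusted p = 9.69e-13). With the starts of all transcripts of coding genes the second difference was -3.51 points. Split by match, the 3 classes were close: peaks with a match had medians of 117, 109 and 110.3, and peaks without one 44.1, 43.4 and 43.0.

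The same order held for how often the lists repeated a peak, although the differences were small. Of the CpG-poor promoter peaks, 85.1% overlapped the conservative IDR set by at least 1 bp, against 87% of all autosomal optimal peaks, 81.5% of the CpG-rich promoter peaks (exact test, adjusted p = 2.28e-05) and 87.8% of the CpG-poor distal peaks (3.50e-06). A strong peak of both libraries, within as many top ranks as the optimal set has peaks, was overlapped by 81.6%, against 83.2% of all, 77.6% of the CpG-rich promoter peaks (exact test, 8.44e-06) and 83.9% of the CpG-poor distal peaks (4.33e-04). Without replicate 1 the difference to CpG-rich promoter peaks in overlap with the conservative set was 2.24 points, against 3.55 with both libraries. Both measures move with signal, and neither was compared at like signal.

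CpG-poor promoter peaks often had a second CTCF summit near them. Another optimal summit lay within 5 kb of 57.6% (56.0 to 59.2), against 44.2% of all autosomal optimal peaks and 40.8% of the CpG-poor distal peaks (difference 16.8 points, 15.2 to 18.5; exact test, adjusted p = 1.46e-88). The difference was 4.32 points among optimal peaks above the median signal and 8.92 points for a distance of 20 kb, and passed in both. The share at CpG-rich promoter peaks was 58.0%, and the interval of that difference ran from -2.47 to 1.78 points (exact test, adjusted p = 0.787). Its sign turned without replicate 2, to 0.956 points. With a distance of 2 kb in place of 5 kb, CpG-poor promoter peaks had fewer neighbours than CpG-rich ones, 38.0% against 42.7% (exact test, adjusted p = 2.16e-05).

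Several genes with many annotated starts carried a number of such peaks. Mcf2l, a guanine nucleotide exchange factor gene, had 7, and Dpp6, which encodes an auxiliary subunit of neuronal potassium channels, had 6. At Mcf2l the peak 812 bp downstream of its start had a signal of 282 (166 in replicate 1 and 118 in replicate 2), and the other 6 lay between 23.4 and 44.2. At Dpp6 the signals were 265, 168, 60.01, 47.1, 22.9 and 21.3, and the strongest, at -865 bp from its start, was the one with a match. Plec, which encodes the cytoskeletal linker plectin, had 4 peaks of 95.7 to 276, all with a match. Rbfox3, the gene of the neuronal nuclear antigen NeuN, had 4 peaks of 28.1 to 467. With the 5′ end of each coding gene as its one start, the same rule selected 2598 peaks.

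Summits at CpG-poor promoters lay in repeats more often than at CpG-rich ones. The summit base was soft-masked in the reference, which marks repeats, for 410 peaks (10.8%, 9.85 to 11.8), against 18.5% of all autosomal optimal peaks. The share was 3.38% at CpG-rich promoter peaks (difference 7.42 points, 6.32 to 8.56; exact test, adjusted p = 1.77e-41) and 21.1% at CpG-poor distal peaks (difference -10.3 points, -11.3 to -9.17; adjusted p = 8.14e-58). With promoters of 500 bp the first difference was 3.44 points (6.74% against 3.30%), and among optimal peaks above the median signal the second was -5.54 points; both passed. The 2 promoter classes were split by the CpG ratio of the DNA that holds the summit base. They also differed in median distance from the start, 407 bp at CpG-poor and 184 bp at CpG-rich promoter peaks. What part either has in the difference in repeats was not tested. Within the CpG-poor promoter peaks, repeat-masked summits lay farther from the start, at a median of 610 bp against 367 bp. They had a match in 64.9% (60.1 to 69.3), against 46.7% (45.0 to 48.4) of the unmasked ones, with median signals of 51.8 and 66.4. The peak of Cyp2w1, a cytochrome P450 gene, is an example in a repeat, with a signal of 419 (230.3 in replicate 1 and 188 in replicate 2).

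By place, 1612 summits (42.5%) lay in introns, 1089 (28.7%) outside genes, 555 (14.6%) in untranslated exons of coding genes, 277 (7.30%) in coding exons and 263 (6.93%) in exons of noncoding transcripts. Of the CpG-rich promoter peaks, 25.5% lay in introns, 35.0% outside genes, 20.8% in untranslated exons, 9.55% in coding exons and 9.16% in exons of noncoding transcripts. Matches at CpG-poor promoter peaks were most frequent outside genes (53.9%) and least frequent in untranslated exons (36.2%). The same places had the highest and lowest match shares at CpG-rich promoter peaks, 37.1% and 25.2%. A start of a noncoding gene also lay within 1 kb of 359 CpG-poor promoter peaks (9.46%), and 17 had starts of 2 or more coding genes. Chromosome 7 held the most of them, 384, and chromosome 12 the fewest, 99. These last counts are given without a comparison class.

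Summits of both promoter classes gathered in the 100 bp before the start, and matches in part of that stretch pointed mostly along the gene. Per 50 bp there were 268 CpG-poor promoter peaks at 50 to 100 bp upstream and 269 at 0 to 50 bp upstream. At 500 to 1000 bp there were 86.7 upstream and 75.2 downstream. CpG-rich promoter peaks gathered there more strongly, with 440 and 492 against 22.2 and 50.8. The CpG-poor promoter summits at 50 to 100 bp upstream had the highest median signal of any distance bin, 98.3, and those at 50 to 100 bp downstream the lowest, 42.9. At CpG-rich promoter peaks the highest median, 95.1, was also at 50 to 100 bp upstream. At 50 to 100 bp upstream, 100 of 136 matches (73.5%, 65.5 to 80.2) lay on the strand of the gene, and at CpG-rich promoter peaks 139 of 193 (72.0%, 65.3 to 77.9). On either side of that bin the share was 48.8% (41.2 to 56.4) and 54.3% (45.3 to 63.1) at CpG-poor promoter peaks, whereas it was 64.5% and 69.8% at CpG-rich ones. By the centre of the match, the gene strand held 39 of 51 matches at 60 to 80 bp upstream and 44 of 65 at 40 to 60 bp upstream. In the bins on either side it held 29 of 50 at 80 to 100 bp and 25 of 45 at 20 to 40 bp upstream. At CpG-rich promoter peaks the gene strand held 63 of 81, 64 of 92, 60 of 81 and 46 of 64 matches in these bins, from 80 to 100 bp to 20 to 40 bp upstream. The distance bins were chosen with the values known and have no test.

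**Figure D4:**
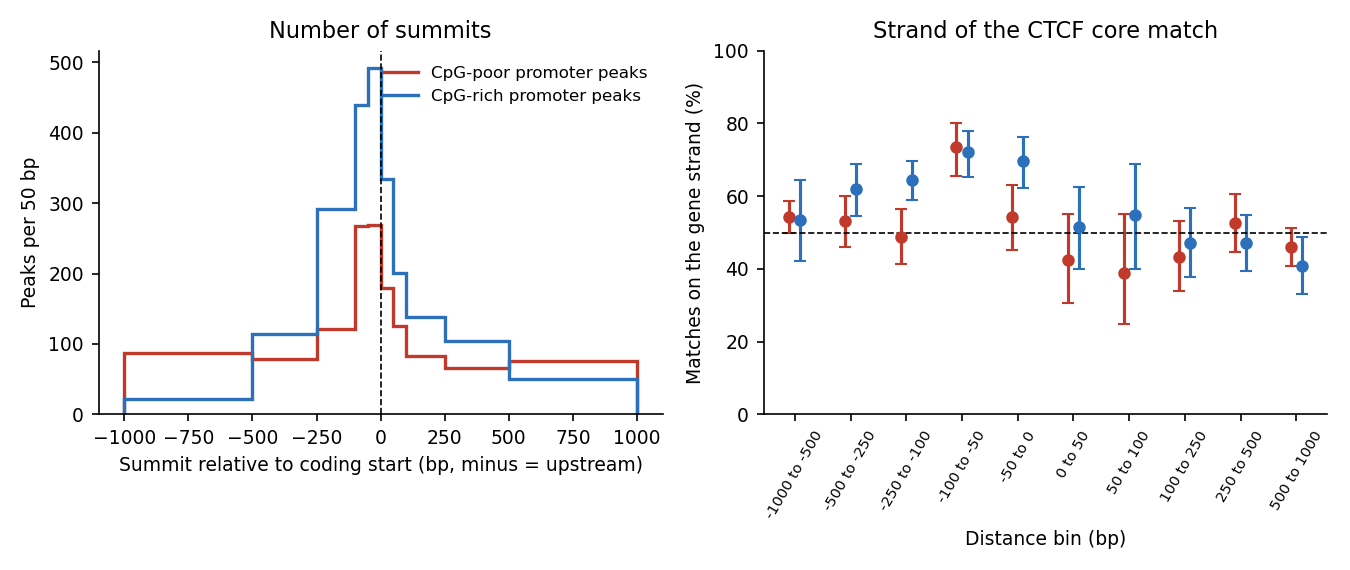
Left, number of summits per 50 bp against the distance from the nearest coding start (bp, negative upstream). Right, percent of CTCF core matches on the strand of the gene in each distance bin, with 95% Wilson intervals and a dashed line at 50%, for CpG-poor (red) and CpG-rich (blue) promoter peaks. Both classes reach about 70% or more at 50 to 100 bp upstream, with 73.5% and 72.0%.

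Over the whole promoter the strand bias was small. Of 1796 CpG-poor promoter peaks whose match had one best strand, 935 (52.1%, 49.7 to 54.4) had it on the strand of the gene, which did not pass the threshold (exact binomial test against 50%, adjusted p = 0.0923). It kept that side under 8 of 17 alternatives and passed, for example, when replicate 2 was left out (52.4%; exact test, adjusted p = 0.0448). Upstream of the start the share was 613 of 1101 (55.7%, 52.7 to 58.6; exact test, adjusted p = 2.41e-04), and it was 60.4% with gene 5′ ends as the starts and 53.3% with the starts of all transcripts of coding genes. At or downstream of the start it was 322 of 695 (46.3%, 42.7 to 50.05; exact test, adjusted p = 0.0657). CpG-rich promoter peaks had 58.6%, and the difference of -6.54 points (-9.97 to -3.07) passed (Fisher's exact test, adjusted p = 2.90e-04). That difference was -2.59 points and missed the threshold when the CpG ratio was taken over a wider window (exact test, adjusted p = 0.170). The share of summits upstream of the start was 56.9% at CpG-poor and 56.8% at CpG-rich promoter peaks (difference 0.116 points, -2.01 to 2.24; exact test, adjusted p = 0.929). That comparison turned to -6.46 points among optimal peaks above the median signal and to 5.74 points with gene 5′ ends as the starts, and passed the threshold in both (exact test, adjusted p = 1.25e-04 and 7.25e-06).

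Most CpG-poor coding starts had no optimal CTCF summit. Of 28775 CpG-poor coding start sites, 4862 (16.9%, 16.5 to 17.3) had a summit of any class within 1 kb, and of 23290 CpG-rich ones 11923 (51.2%, 50.6 to 51.8) did. The TATA box, which places the start in many tissue-specific promoters, was looked for as TATAAA on the gene strand. The whole word had to lie within the stretch from 40 to 20 bases before the start. It was found at 33 of 3582 start sites nearest to a CpG-poor promoter peak (0.921%, 0.657 to 1.29) and at 1.44% of all coding start sites. Start sites nearest to a CpG-rich promoter peak had a similar share, 37 of 4267 (0.867%, 0.630 to 1.19). Among CpG-poor start sites, 0.905% (0.675 to 1.21) of those with a summit and 2.37% (2.18 to 2.57) of those without one held it. These shares are descriptions of letters in the sequence.

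Genes with a CpG-poor start differed by family in how many had a CpG-poor promoter peak. A gene counted when at least 1 of its coding starts was CpG-poor and such a peak lay within 1 kb of any of its coding starts. The peak need not lie at the CpG-poor start, and genes with more annotated starts had more chances to count. The shares were not adjusted for the number of starts. Over all coding genes with such a start, 2655 of 14228 (18.7%) had one, and the lists below are counts beside that background, with no test. Of the families typical of a single tissue, chemosensory receptors had 11 of 1507 (0.730%, 0.408 to 1.30), keratins and their associated proteins 3 of 150 (2.00%), cytochrome P450 and glucuronosyltransferase genes 5 of 105 (4.76%) and liver genes 1 of 30 (3.33%). Immune cell and microglia genes had 3 of 43 (6.98%), MHC genes 2 of 28 (7.14%), and claudin, gap and tight junction genes 3 of 34 (8.82%). Serine protease inhibitors and proteases had 13 of 147 (8.84%), and chemokines, interleukins and their receptors 11 of 118 (9.32%). All of these shares stand below the background, which the intervals of the MHC genes (1.98 to 22.6) and of the claudin, gap and tight junction genes (3.05 to 22.96) include.

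Crystallins had 2 of 16 (12.5%), glia and myelin genes 3 of 24 (12.5%), muscle contractile genes 7 of 43 (16.3%) and globin and red cell genes 5 of 22 (22.7%), all with intervals that include the background. Shares above it were found for solute carriers, 63 of 249 (25.3%, 20.3 to 31.0), potassium, sodium and calcium channels, 27 of 96 (28.1%, 20.1 to 37.8), and zinc finger genes named Zfp, 82 of 265 (30.9%, 25.7 to 36.7). Neuronal genes had 12 of 31 (38.7%, 23.7 to 56.2). The clustered protocadherins, neighbouring genes whose choice of promoter gives neurons distinct surface identities, had 25 of 35 (71.4%, 54.9 to 83.7). They share one locus and similar promoters, so they are not independent. Reads may also be shared among similar copies, which was not tested.

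**Figure D5:**
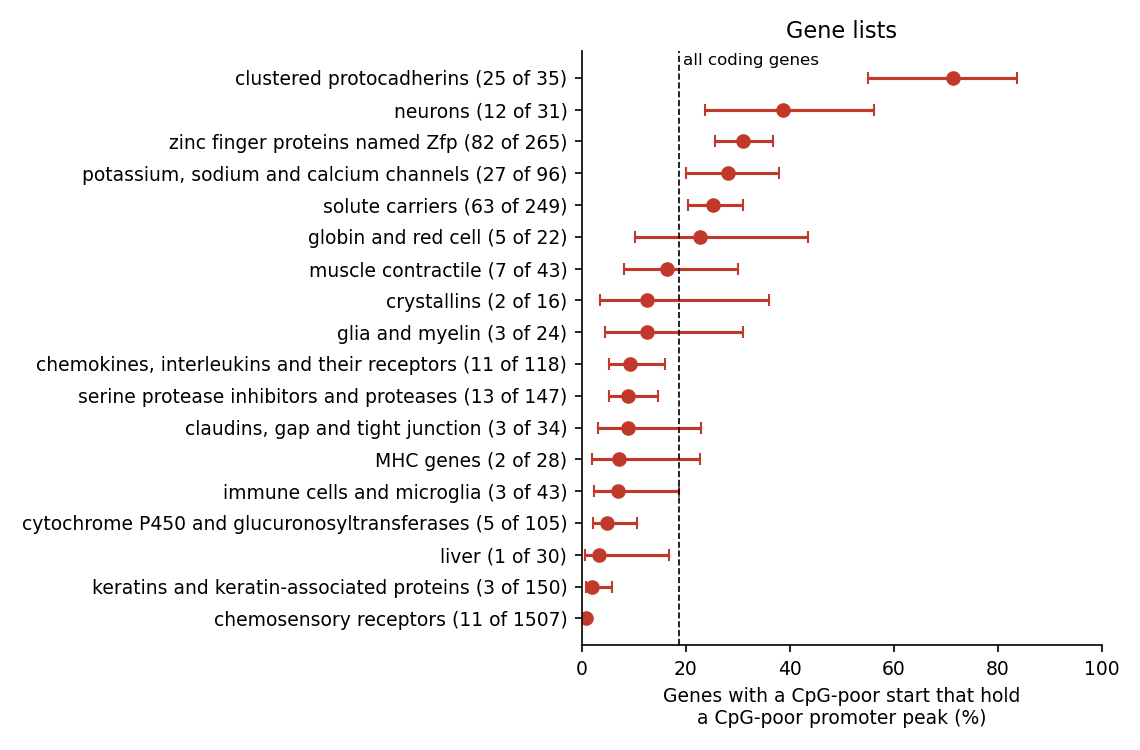
Percent of genes with a CpG-poor coding start that had a CpG-poor promoter peak (points, with 95% Wilson intervals) for 18 gene lists, with counts in brackets and a dashed line at 18.7% for all coding genes. Chemosensory receptors stand lowest at 0.730% and clustered protocadherins highest at 71.4%.

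The peaks named for each list are its strongest, so their height over other peaks follows from that choice. Taking the strongest peak of each gene, the median signal was 133 over the neuronal genes, 57.3 over the channels and 202 over the glial genes, against 74.2 over all coding genes with a CpG-poor promoter peak. Among neuronal genes, Rbfox3 had 467 (263 in replicate 1 and 207 in replicate 2), in an intron 725 bp upstream of its nearest start. Grin2a and Grin2b, which encode subunits of the NMDA glutamate receptor, had 368 (224 and 149) and 292 (162 and 128). Scn1a and Scn3a, genes of voltage-gated sodium channels, had 294 (168 and 124) and 285 (176 and 109), both with a match that has no mismatch and lies on the gene strand. Cacnb3, a calcium channel subunit gene, had 360.2 (203 and 161). Of 29 channel genes with a CpG-poor promoter peak, 12 had a match at their strongest one, against 1676 of 3260 over all coding genes with one. Among glial genes, Pdgfra, a receptor of oligodendrocyte precursors, had 310.4 (159 and 148), and Olig2, a factor of that lineage, had 98.6 (56.6 and 43.1). The starts of Pdgfra and Olig2 were themselves CpG-rich, with ratios of 0.601 and 0.756.

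Among transporters and zinc finger genes, the signals reached similar values. Slc36a1, an amino acid transporter gene, had 476 (272 and 204) at 91 bp upstream of its start, and Slc35e4 had 401 (236 and 167) at 65 bp upstream. Slc52a3, a riboflavin transporter gene, had 432 (251 and 182) without a core match. Zfp385a had 397 (213 and 182), Zfp90 had 369 (199 and 172), and Zfp516 had 445 (265 and 183), the last without a match. Of 94 Zfp genes with a CpG-poor promoter peak, 32 had a match at their strongest one, against 1676 of 3260 over all coding genes with one.

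At the protocadherin cluster few of the peaks had a core match. Of 27 clustered protocadherin genes with a CpG-poor promoter peak, 4 had a match at their strongest one, with a median signal of 45.5 over these peaks. The strongest was at Pcdhac1, with 398 (235 in replicate 1 and 164 in replicate 2) at 53 bp upstream of its start and with a match on the gene strand. Pcdhga12 had 144 (88.0 and 56.5) and Pcdhga3 had 93.3 (62.4 and 29.6), and the best site of each had 3 mismatches. In all coding genes with a CpG-poor promoter peak, 1676 of 3260 had a match at their strongest one.

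Genes of the liver, of smell and of cell junctions had shares below the background, and their strongest peaks are given here. Apob, a liver gene for the protein of lipoproteins, had 414 (235 and 182) in an intron 939 bp downstream of its start. Olfr557, an olfactory receptor gene, had 293 (173 and 122.7), Olfr156 had 214 (124 and 89.6) and Olfr1499 had 174 (105 and 68.9). Cldn1, which encodes a tight junction protein, had 331 (200.3 and 130.4) at 62 bp upstream of its start, and Gja4 had 137 (83.7 and 50.6).

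Muscle and red cell genes, whose shares had intervals that include the background, also had peaks. Tnnt1, of slow skeletal muscle, had 248 (142 and 108), Tnni3, of heart muscle, had 184 (102 and 83.7), and Myh11, of smooth muscle, had 157 (102 and 57.4). All 7 muscle genes with a peak had a core match at their strongest one, against 1676 of 3260 coding genes with a CpG-poor promoter peak. The theta globin genes Hbq1a and Hbq1b had 232 (139 and 92.5) and 199.6 (113 and 85.8). Hbq1a and Hbq1b are near copies of each other, so their reads may have been split between them. The lens genes Cryba2 and Crybb3 had 236 (127 and 109) and 182 (96.0 and 85.5).

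Protease, cytokine and immune genes completed the lists. Tmprss5, Prss57 and Tmprss9, all of serine proteases, had 399 (233 and 169), 335 (193 and 141) and 296 (170 and 126), each with a match. Il12b, a cytokine gene, had 262 (161 and 102), and the receptor genes Il27ra and Il3ra had 244 (149 and 93.4) and 169.9 (100.2 and 70.1). Itgal, an integrin gene of leukocytes, had 266 (152 and 113), Mpo, of neutrophils, had 139 (81.6 and 57.4), and Coro1a had 47.0 (24.9 and 18.0). On the list of keratins and associated proteins, the keratin genes Krt87 and Krt222 had 43.3 (24.98 and 15.96) and 25.8 (17.0 and 9.49), and Lce1h, a gene of the cornified envelope of skin, had 39.0 (24.8 and 13.4). Cyp1a1 and Cyp21a1 had 51.3 (23.4 and 28.4) and 50.5 (31.6 and 18.2), and H2-T24, an MHC class I gene, had 45.6 (29.6 and 15.1). Cyp1a1 is one of the 360 peaks that were higher in replicate 2.

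Candidate peaks of the pooled list that the optimal set left out had fewer matches than those that overlapped it. Under the same rule, 13469 of the 251251 pooled peaks lay at CpG-poor coding promoters, and 9526 of them overlapped no optimal peak. Of those, 10.9% (10.3 to 11.6) had a core match, with a median signal of 10.1 and a maximum of 59.6. The share was 47.1% for the 3943 that overlapped an optimal peak, with a median signal of 60.1. Windows 1 kb from the CpG-poor promoter summits of the optimal set had 3.58% and 4.14%, and those summits in the weakest signal quartile 24.4%. The kept and left-out peaks were not compared at like signal.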

How the data were processed

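CTCF ChIP-seq was deposited as peak lists for 2 libraries. Per the deposited descriptions, the authors made each library's list of 300000 peaks from its own alignments and a control, a pooled list from both libraries, and the conservative (59979 peaks) and the optimal IDR set from these. The caller and the aligner were not given in the sources used here. Signal is a score that the authors deposited with no stated unit; the deposited summit offset gave each summit.

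Summits were set against mm10 (GRCm38.p6 sequence) and GENCODE vM21. A coding start is the start of a protein-coding transcript of a protein-coding gene, and 1423 optimal peaks on other chromosomes were left out. Motifs were searched in 101 bp; strand ties were left out. Signal in a library is that of the overlapping peak (at least 1 bp) with the nearest summit. Signal quartiles are those of the autosomal optimal peaks. Shares have Wilson intervals. Tests were Fisher's exact and exact binomial over peaks (Python 3.11.15, NumPy 2.4.6, SciPy 1.17.1, pandas 2.3.3), tested on simulated data. Benjamini-Hochberg adjustment was over the 25 main tests, and within each alternative over its own tests. Read depth is unknown here, so precision is counting error over peaks.

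Named are the 15 strongest CpG-poor promoter peaks, up to 3 of the strongest of each gene list and the 2 peaks on each side of the CpG limit; genes with 4 or more of these peaks were chosen after their values were seen. Some items that this rule names are not reported here. The peaks of the rule, the lists, tests and bins were chosen with earlier results of these data known. Alternatives covered the peak set, each library alone, merged summits, promoter size, gene 5′ ends, CpG limit and window, motif settings, overlap and neighbour distance. A CpG limit at the start site and the starts of all transcripts of coding genes were added after seeing the data.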

Additional observations from a re-analysis of the deposited data

How the results depend on the processing

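Of 27 results, 16 kept their direction and their side of the threshold under every alternative run, and 371 of 409 recomputed values did so. These include all 10 differences in core matches (over all signals, 10.1 to 23.2 points against CpG-rich promoter peaks and -25.6 to -12.7 against CpG-poor distal peaks; within signal quartiles, 3.81 to 24.1 and -28.8 to -2.02), those in signal and in repeat-masked summits, neighbouring summits against distal peaks, and the gene strand share upstream of the start. Their sizes moved more: neighbouring summits against distal peaks ranged from 4.32 to 18.2 points, and repeat-masked summits from 3.44 to 9.81 against CpG-rich and from -14.3 to -5.54 against distal peaks. No 2 optimal summits were under 150 bp apart, so merging changed nothing. The number of CpG-poor promoter peaks was 1721 among optimal peaks above the median signal and 2240 with promoters of 500 bp, from 1626 and 2039 genes. Each library alone gave 3803 to 3826 of them. No paired analysis was possible because there is 1 group.

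Another summit nearby, against CpG-rich promoter peaks (main -0.346 points), was 2.26 above the median signal, -2.79 with promoters of 500 bp, 1.06 with gene 5′ ends, 1.04 with the narrower CpG window, -5.18 with the wider one, -4.66 within 2 kb, 0.0043 within 20 kb, -3.49 with the CpG limit also at the start, -2.59 with all transcripts of coding genes and -1.13 to 0.956 with 1 library left out. Summits upstream (main 0.116 points) were -6.46 above the median signal, -2.08 with promoters of 500 bp, 5.74 with gene 5′ ends, -1.47 with a CpG limit of 0.7, -1.93 with the wider CpG window, -2.56 with the limit at the start and -2.66 with all transcripts. Matches on the gene strand over all promoter peaks (main 2.06 points above 50%) passed above the median signal (4.01), with promoters of 500 bp (3.31), gene 5′ ends (5.52), a limit of 0.7 (2.85), the wider CpG window (4.02), 1 or 3 mismatches (4.65 and 2.61), a motif window of 25 bp (3.38) and without replicate 2 (1.40 to 2.45 over the 2 libraries). At or downstream of the start (main -3.67) they passed with a limit of 0.7 (-3.42), a motif window of 100 bp (-3.79) and all transcripts (-3.44). Against CpG-rich promoter peaks the gene strand difference missed the threshold with the wider CpG window (-2.59). The cause of these changes was not tested. Above the median signal, nearly every peak is in the conservative set and in both libraries, so those differences became -0.0581 and 0 against CpG-rich promoter peaks and -0.0418 and 0.0163 against CpG-poor distal peaks.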
